A study of Mus musculus with 9 samples.

Results

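Tenascin-R and the perineuronal net matrix genes were taken as 10 named transcripts, Tnr, Tnc, Acan, Bcan, Ncan, Vcan, Hapln1, Hapln2, Hapln4 and Ptprz1, and were found by symbol among the 21423 genes of the table. They were chosen by measured values of these data, the high Tnr level in the cocaine library against the saline library, so every difference here is a description of the libraries and none is tested. Messenger RNA was sequenced from punches of the nucleus accumbens, a ventral striatal region that takes part in reward, of adult male C57BL/6 mice aged 2 to 5 months. The withdrawal group had received daily intraperitoneal cocaine for 7 days and was then left in the home cage for 8 days. The cocaine group had the same 7 daily injections and was killed 24 h after the last, and the saline group had 7 daily saline injections (10 ml/kg) and was killed at the same interval. The cocaine dose is given as 10 or 20 mg/kg per day without saying which applied to a group. Each group was represented by pooled RNA of 8 mice made into 1 library and sequenced in 3 lanes, so the lanes are technical repeats and no difference between treatments has a replicate check.

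A perineuronal net is a lattice of extracellular matrix around the cell body and proximal dendrites of certain neurons, above all fast-spiking interneurons that contain parvalbumin. Its backbone is hyaluronan, to which chondroitin sulfate proteoglycans of the lectican family bind, and link proteins hold that bond in place. Tenascin-R cross-links the lecticans at their other end. Related matrix of the same families surrounds synapses and nodes of Ranvier, and much of it is made by glia and oligodendrocyte precursors as well as by neurons.

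Levels are given in RPKM, a read count scaled to the length of the gene model and the total of the lane, as means ± SD over the 3 lanes of 1 library. Differences are means of log2(RPKM + 0.5) ± the standard error over lanes, a scale that understates the change of low genes. Genes averaging 1 RPKM or more in the 9 lanes were tested, and one was called higher or lower where 2 libraries differed by at least 1.5 times and none of their lanes overlapped. That filter left 14051 genes and 8 of the 10 matrix genes, since Tnc and Acan lay below it. Lane totals ran from 5546362 to 12026754 reads, and the SDs and standard errors cover sequencing only. All 12 medium spiny neuron markers listed were over the filter, as were all 9 endothelial and mural, 11 astrocyte and 6 microglia markers. Passing the filter therefore does not identify the tissue. The medium spiny neuron markers summed to 1786 to 1806 RPKM in the withdrawal lanes and 1481 to 1567 RPKM in the cocaine lanes. In the saline lanes they summed to 2024 to 2122 RPKM. In such bulk tissue, fewer cells of a type and less RNA per cell cannot be told apart.

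The regions just before the starts of Tnr, Ptprz1 and Bcan are shown because these genes had the largest difference, the next largest among the genes over the filter, and the highest level. Each is the 250 bases upstream of a RefSeq transcript start (build GRCm38.p6, 5′ to 3′ on the gene's strand), with CG dinucleotides in capitals. The Tnr region lies at chr1:159523519-159523768 on the plus strand, that of Ptprz1 at chr6:22875252-22875501 on the plus strand and that of Bcan at chr3:88000357-88000606 on the minus strand.
Tnr: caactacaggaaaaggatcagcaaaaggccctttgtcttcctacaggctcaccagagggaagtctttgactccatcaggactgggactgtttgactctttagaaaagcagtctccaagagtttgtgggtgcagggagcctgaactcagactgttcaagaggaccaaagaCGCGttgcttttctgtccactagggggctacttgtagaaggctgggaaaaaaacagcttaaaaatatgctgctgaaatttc
Ptprz1: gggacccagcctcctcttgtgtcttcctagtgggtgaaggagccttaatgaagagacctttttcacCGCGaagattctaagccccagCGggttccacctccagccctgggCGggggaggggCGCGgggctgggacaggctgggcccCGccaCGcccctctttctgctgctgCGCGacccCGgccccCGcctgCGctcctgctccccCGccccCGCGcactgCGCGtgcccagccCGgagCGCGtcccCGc
Bcan: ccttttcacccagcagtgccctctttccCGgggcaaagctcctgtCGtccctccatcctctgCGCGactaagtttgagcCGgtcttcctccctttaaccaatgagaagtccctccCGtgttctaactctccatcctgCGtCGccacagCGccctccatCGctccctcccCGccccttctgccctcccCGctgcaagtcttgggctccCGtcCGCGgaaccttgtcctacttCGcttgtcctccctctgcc
The Tnr region held 2 CG dinucleotides and 46.8% G and C, against 22 and 71.6% for Ptprz1 and 16 and 62.0% for Bcan. Over the 32851 upstream regions of this length the medians were 6 CG dinucleotides and 52.4%. Regions were matched for 9 of the 10 genes, with 2 starts for Tnc. On both strands, none of these 10 regions held the cAMP response element TGACGTCA, which 1.55% of all regions hold, or the AP-1 site TGANTCA, which 6.75% hold. The letters of the TATA box, TATAAA, found in 12.4% of all regions, occurred for Ncan on the opposite strand, 11 bases upstream. The 2 Tnc regions overlap and held the same match, 126 and 205 bases upstream of their starts. These matches describe letters in a window and say nothing of which factors act there.

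Tnr stood at several times its saline level in both libraries from mice that had received cocaine. Its lanes held 18.6, 18.8 and 19.6 RPKM in the withdrawal library, 17.7, 16.6 and 16.9 RPKM in the cocaine library and 5.14, 5.12 and 4.18 RPKM in the saline library. Every withdrawal lane lay above every cocaine lane, and every cocaine lane was more than 3 times the highest saline lane. The means were 19.0 ± 0.511, 17.1 ± 0.571 and 4.81 ± 0.551 RPKM in the withdrawal, cocaine and saline libraries, which rest on about 2001, 2234 and 681 reads estimated from RPKM, gene model length and total. The cocaine library held 3.55 times the saline mean (log2 difference 1.73 ± 0.093), and 8 of the 14051 genes had a larger difference. The withdrawal library held 3.95 times the saline mean (1.88 ± 0.092), with 12 genes above it. Between the withdrawal and cocaine libraries Tnr differed by 0.15 ± 0.035 without overlap of the lanes, which is under 1.5 times and is no call. Left out one at a time, no lane took the difference below 1.64 for cocaine against saline or below 1.79 for withdrawal against saline.

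**Figure D1:**
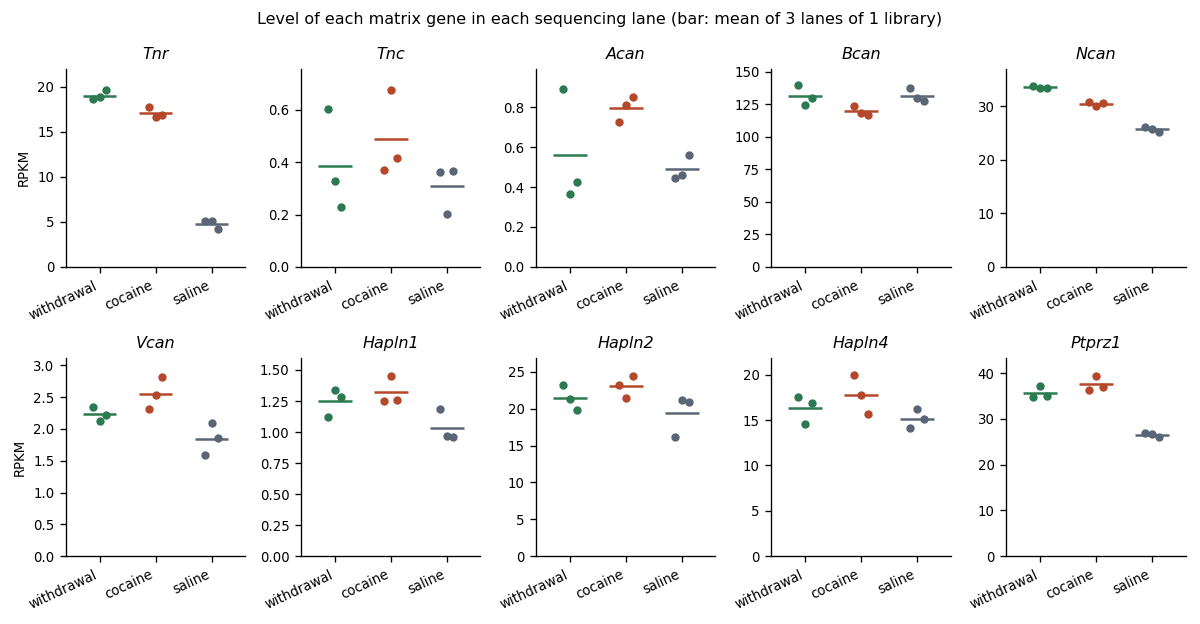
Level in RPKM (linear axis from 0) of the 10 matrix genes in each of the 3 lanes of the withdrawal, cocaine and saline libraries; points are lanes and bars are means of 3 lanes. Tnr lies between 16.6 and 19.6 RPKM in the withdrawal and cocaine lanes and at most at 5.14 RPKM in the saline lanes, while the other panels show smaller steps.

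Tnr was the only call among the 8 genes over the filter: 1 was called higher and 0 lower for cocaine against saline, 1 higher and 0 lower for withdrawal against saline, and 0 for withdrawal against cocaine. Among all genes tested, 5.33% were called in either direction for cocaine against saline (2.93% higher and 2.41% lower), 7.33% for withdrawal against saline (3.96% higher and 3.37% lower) and 1.02% for withdrawal against cocaine (0.47% higher and 0.548% lower). The first of these contrasts chose Tnr, and the second shares the saline library with it, so nothing is read from either share. Over all genes the cocaine against saline calls split into 411 higher and 338 lower, or 535 and 204 after scaling to a common 75th percentile and 478 and 98 with differences centred within 20 bins of gene length. Withdrawal against saline split into 557 and 473, or 765 and 280 and 595 and 175 with the same changes. Setting the median difference to 0 gave 505 and 230 for cocaine against saline and 729 and 309 for withdrawal against saline. The Tnr call was kept under each of these.

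The gene model behind the Tnr value was short. A length of 5396 bp, recovered from the steps of the RPKM values, is 44.2% of the longest Tnr transcript in the reference annotation (12202 bases), which is of another build than the files. The models of the other 9 matrix genes had 88.5% to 124% of their longest reference transcript. Of the 102 tested genes whose longest reference transcript exceeds the model by more than 5000 bases, Tnr among them, 28.4% were called higher and 0 lower for cocaine against saline, and 30.4% higher and 1.96% lower for withdrawal against saline. Of the 12493 other genes with a reference transcript, 2.63% and 3.67% were called higher in these comparisons. The share was not even within that group. It was 15.1% and 16.2% for the 179 genes with an excess of 3000 to 5000 bases. For the 451 genes with an excess of 1500 to 3000 bases it was 4.66% and 6.87%. For withdrawal against cocaine none of the 102 genes was called, against 0.472% higher and 0.496% lower of the others. The limit of 5000 bases was chosen after the values had been seen, the comparisons share the saline library, and the part of the model's extent in the Tnr difference was not tested.

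**Figure D2:**
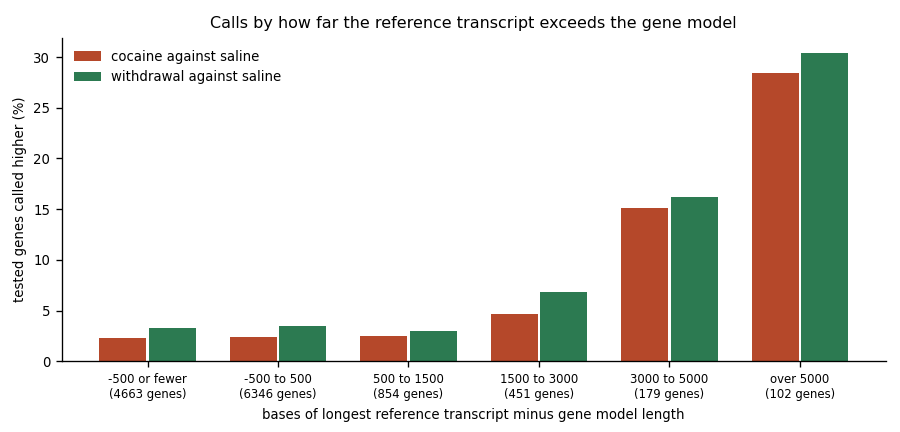
Percentage of tested genes called higher (linear axis from 0) against the number of bases by which the longest reference transcript exceeds the gene model, for cocaine against saline and withdrawal against saline. The bars stand at 28.4% and 30.4% in the group over 5000 bases, which holds Tnr, and at 2.40% and 3.44% between -500 and 500 bases.

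The genes whose pattern was most like that of Tnr were sought among 11253 tested genes averaging 3 RPKM or more, by the Euclidean distance in the pair of log2 differences from saline. The pair comes from 3 libraries that share the saline one. Nearest was Grin2a, an NMDA receptor subunit, at a distance of 0.078, with 6.20 ± 0.570, 5.60 ± 0.305 and 1.40 ± 0.189 RPKM in the withdrawal, cocaine and saline libraries. Bmpr2, a receptor for bone morphogenetic proteins, followed at 0.083, with 15.2 ± 0.811, 14.6 ± 0.447 and 3.82 ± 0.447 RPKM in the withdrawal, cocaine and saline libraries. Kcnq3, which encodes a neuronal potassium channel subunit, came next at 0.12, with 17.9 ± 2.00, 14.2 ± 1.62 and 4.19 ± 0.582 RPKM across withdrawal, cocaine and saline. After these came the predicted genes Gm13872 and Gm10176, each at 0.26. Gm13872 had 16.0 ± 0.876 RPKM in the withdrawal library, 13.9 ± 0.140 RPKM in the cocaine library and 4.57 ± 1.04 RPKM in the saline library, and Gm10176 had 4.36 ± 1.12, 4.20 ± 0.862 and 1.03 ± 0.164 RPKM in withdrawal, cocaine and saline. The models of Grin2a, Bmpr2 and Kcnq3 had 36.2%, 27.2% and 24.3% of their longest reference transcript, whereas those of Gm13872 and Gm10176 were not short, at 130% and 100%.

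Tnc, the other tenascin, which is abundant in the developing brain and in glia, was close to the limit of detection. Its lanes held 0.603, 0.327 and 0.230 RPKM in the withdrawal library, 0.372, 0.677 and 0.417 RPKM in the cocaine library and 0.363, 0.202 and 0.366 RPKM in the saline library. Cocaine lanes lay just above saline lanes, withdrawal lanes spanned both, and single lanes rested on as few as 10 reads. The log2 differences were 0.28 ± 0.17 for cocaine against saline and 0.11 ± 0.20 for withdrawal against saline, and a change of the Tnr kind was not seen.

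Among the lecticans, brevican was by far the most abundant transcript and the only lectican with a lower level in the cocaine library than in the saline library. Bcan had 140.0, 124 and 130.3 RPKM in the withdrawal lanes, 124, 118 and 117 RPKM in the cocaine lanes and 138, 130.0 and 128 RPKM in the saline lanes. The cocaine lanes lay below the saline lanes without overlap, by a log2 difference of -0.14 ± 0.041, while withdrawal and saline lanes overlapped (-0.0028 ± 0.059). The second value turned positive in 6 of 18 alternatives, at most 0.071: with each of the 3 other scalings, and without withdrawal lane 2 (0.036), withdrawal lane 3 (0.0033) or saline lane 1 (0.029). The first kept its sign but shrank to between -0.090 and -0.066 with those scalings.

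Neurocan, a lectican abundant in the young brain, was higher in both cocaine-exposed libraries by less than 1.5 times. Ncan had 33.8, 33.4 and 33.5 RPKM in the withdrawal lanes, 30.8, 30.0 and 30.7 RPKM in the cocaine lanes and 26.1, 25.8 and 25.2 RPKM in the saline lanes. The 3 libraries did not overlap and stood in the order withdrawal, cocaine, saline, as they did for Tnr. The log2 differences were 0.24 ± 0.019 for cocaine against saline, 0.38 ± 0.015 for withdrawal against saline and 0.14 ± 0.014 for withdrawal against cocaine. Relative to genes of like length the first and second were 0.11 and 0.25.

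Versican and aggrecan were low. Vcan, a lectican made by oligodendrocyte precursors and other cells, had 2.35, 2.13 and 2.22 RPKM in the withdrawal lanes, 2.32, 2.53 and 2.82 RPKM in the cocaine lanes and 1.59, 2.09 and 1.85 RPKM in the saline lanes. Cocaine and withdrawal lanes lay above saline lanes. The log2 difference was 0.38 ± 0.11 for cocaine against saline and 0.22 ± 0.097 for withdrawal against saline, and within genes of like length these became 0.083 and -0.059, the second with its sign turned. Acan, the lectican most closely tied to perineuronal nets, had 0.893, 0.363 and 0.424 RPKM in the withdrawal lanes, 0.725, 0.813 and 0.854 RPKM in the cocaine lanes and 0.445, 0.463 and 0.562 RPKM in the saline lanes. All cocaine lanes lay above all saline lanes (0.39 ± 0.067, 1.63 times), on about 145 and 94 reads per library, and a single withdrawal lane was high while the other two lay below the saline lanes.

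Differences of the link proteins were small and none was called. Hapln1, the link protein of nets and cartilage, had 1.12, 1.34 and 1.29 RPKM in the withdrawal lanes, 1.246, 1.45 and 1.26 RPKM in the cocaine lanes and 1.18, 0.964 and 0.961 RPKM in the saline lanes. Hapln2, a link protein of nodes of Ranvier, had 23.2, 21.3 and 19.8 RPKM in the withdrawal lanes, 23.2, 21.4 and 24.5 RPKM in the cocaine lanes and 16.2, 21.2 and 21.0 RPKM in the saline lanes. Hapln4, a link protein that goes with brevican at synapses, had 17.5, 14.6 and 16.9 RPKM in the withdrawal lanes, 20.0, 17.8 and 15.7 RPKM in the cocaine lanes and 14.2, 16.2 and 15.1 RPKM in the saline lanes. For Hapln1 and Hapln2 the cocaine lanes lay above the saline lanes by a small margin, and for Hapln4 they overlapped. The log2 differences for cocaine against saline were 0.25 ± 0.086 for Hapln1, 0.25 ± 0.14 for Hapln2 and 0.22 ± 0.11 for Hapln4. For withdrawal against saline, where all 3 overlapped, they were 0.19 ± 0.088, 0.14 ± 0.14 and 0.10 ± 0.097. Relative to genes of like length Hapln2 came to 0.42 for cocaine against saline and 0.34 for withdrawal against saline, Hapln4 to 0.28 and 0.17, and Hapln1 to 0.19 and 0.15, all without a call.

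Ptprz1 encodes a receptor phosphatase whose secreted form, phosphacan, is a chondroitin sulfate proteoglycan that binds tenascin-R. It had 34.9, 37.1 and 34.9 RPKM in the withdrawal lanes, 36.4, 39.5 and 37.0 RPKM in the cocaine lanes and 27.0, 26.6 and 25.9 RPKM in the saline lanes. Withdrawal and cocaine lanes overlapped and all lay above the saline lanes. The means were 1.42 times the saline mean in the cocaine library (0.50 ± 0.038) and 1.35 times in the withdrawal library (0.42 ± 0.033), short of the limit for a call. Genes of like length, the longest of the 20 bins, had a median of 0.30 for cocaine against saline and 0.28 for withdrawal against saline, and Ptprz1 exceeded these by 0.20 and 0.14.

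**Figure D3:**
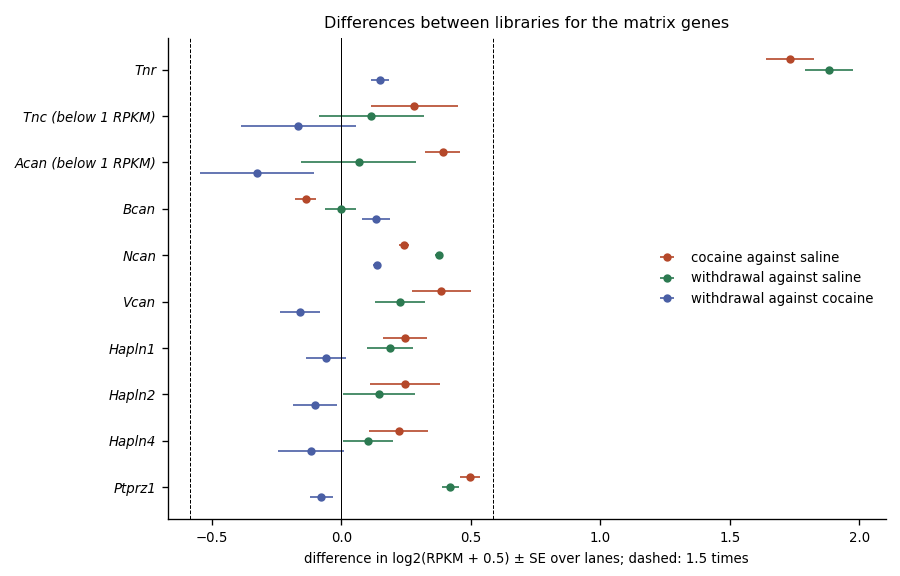
Difference in mean log2(RPKM + 0.5) ± standard error over lanes (horizontal axis) for each matrix gene in the 3 comparisons, with dashed lines at 1.5 times. Tnr lies at 1.73 and 1.88 against saline, and no other gene passes 0.50.

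Apart from Tnr the 7 other tested genes lay between -0.14 and 0.50 for cocaine against saline, between -0.0028 and 0.42 for withdrawal against saline and between -0.16 and 0.14 for withdrawal against cocaine. The median of the 8 was 0.25, where that of all tested genes was -0.047, for cocaine against saline, and 0.21 where that of all was -0.056 for withdrawal against saline. Within genes of like length the medians of the 8 were 0.19 and 0.16. Lanes lay higher without overlap, at any size, for 6 of the 8 genes for cocaine against saline (18.3% of all genes) and for 4 for withdrawal against saline (18.6%), and 1 gene, Bcan, lay lower in the first (23.9% of all genes). For withdrawal against cocaine Tnr, Ncan and Bcan lay higher without overlap (8.66% of all genes), 0 lay lower (9.42% of all genes) and the median of the 8 was -0.068. In either direction lanes were apart for 42.1% of all genes for cocaine against saline, 44.2% for withdrawal against saline and 18.1% for withdrawal against cocaine, and 0 of the 8 lay lower in the second (25.6% of all genes).

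Since RPKM is per length, levels can be set side by side, within limits. Differences from saline generally rose with gene length. For cocaine against saline, bin medians ran from -0.32 (735 to 1176 bp) to 0.30 (9960 bp or more). The Tnr level also rests on its short gene model. The 10 genes summed to 262 ± 9.92 RPKM in the withdrawal library, 251 ± 4.95 RPKM in the cocaine library and 227 ± 3.71 RPKM in the saline library. Bcan made up 50.2%, 47.7% and 58.0% of that sum in the withdrawal, cocaine and saline libraries, and Tnr 7.27%, 6.81% and 2.12%. In the saline library the order was Bcan, Ptprz1, Ncan, Hapln2, Hapln4, Tnr, Vcan, Hapln1, Acan and Tnc, and lanes of Ptprz1 and Ncan overlapped, as did those of Hapln2 and Hapln4. The cocaine library kept that order, but Tnr now overlapped with Hapln4. In the withdrawal library Tnr ranked 5, above Hapln4 and below Hapln2 without overlap, and the lanes of Acan and Tnc overlapped. Among all tested genes Tnr stood at percentile 71.4 in the withdrawal library and 68.5 in the cocaine library, against 31.8 in the saline library.

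Ratios within a lane do not depend on a factor shared by all genes of the lane, though they do not remove differences that go with gene length. Tnr was 13.3%, 15.1% and 15.0% of Bcan in the withdrawal lanes, 14.3%, 14.1% and 14.4% in the cocaine lanes and 3.74%, 3.94% and 3.27% in the saline lanes. Withdrawal and cocaine lanes overlapped in this ratio, far above saline. Against Ptprz1, Tnr stood at 53.4 ± 2.69% in the withdrawal library, 45.5 ± 3.26% in the cocaine library and 18.1 ± 1.77% in the saline library. Ncan was 25.6 ± 1.34%, 25.5 ± 0.673% and 19.5 ± 0.466% of Bcan in the withdrawal, cocaine and saline libraries, again without overlap between saline and the others. Relative to genes of like length the pair lay closer for cocaine against saline, Ncan at 0.11 and Bcan at -0.076, where the values without that centring were 0.24 and -0.14.

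Each lectican gene neighbours a link protein gene, with 0 protein-coding genes between them in the RefSeq table: Bcan and Hapln2 on chromosome 3, Vcan and Hapln1 on chromosome 13, Ncan and Hapln4 on chromosome 8, and Acan and Hapln3, which is outside the set, on chromosome 7. Hapln2 was 16.3 ± 0.964%, 19.2 ± 1.46% and 14.8 ± 2.66% of Bcan in the withdrawal, cocaine and saline libraries. Hapln4 was 48.7 ± 4.48%, 58.4 ± 6.95% and 59.0 ± 4.45% of Ncan in withdrawal, cocaine and saline. Hapln1 was 56.2 ± 7.77%, 52.0 ± 6.56% and 57.5 ± 15.1% of Vcan in withdrawal, cocaine and saline, and its lanes overlapped among all 3 libraries.

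**Figure D4:**
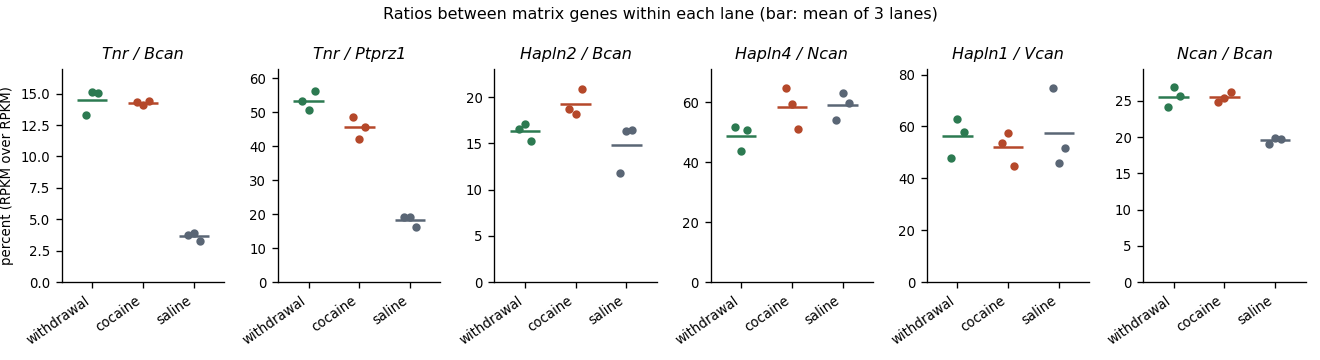
Ratio of one matrix gene to another within each lane, in percent of RPKM (linear axes from 0), for the withdrawal, cocaine and saline libraries; points are lanes and bars their means. Tnr over Bcan is at least 13.3% in the withdrawal and cocaine lanes and at most 3.94% in the saline lanes, while Hapln1 over Vcan overlaps in all libraries.

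The enzymes, receptors and other matrix genes around these members showed few calls. Of 73 tested genes in 4 lists, 3 were called higher and 0 lower for cocaine against saline (4.11%, against 5.33% of all genes), 4 higher and 0 lower for withdrawal against saline (5.48%, against 7.33%) and 1 higher and 0 lower for withdrawal against cocaine (1.37%, against 1.02%). The medians were 0.054, 0.060 and 0.015. These shares are close to those of all genes.

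Of 21 tested genes for the synthesis of chondroitin or dermatan sulfate and hyaluronan, Xylt1 was the single call. It encodes a xylosyltransferase that starts glycosaminoglycan chains on core proteins, and had 7.07, 7.40 and 7.41 RPKM in the withdrawal lanes, 5.65, 6.06 and 5.41 RPKM in the cocaine lanes and 2.70, 2.14 and 2.59 RPKM in the saline lanes. The libraries did not overlap, with log2 differences of 1.06 ± 0.096 for cocaine against saline and 1.39 ± 0.088 for withdrawal against saline. Like that of Tnr, its model is short, with 42.4% of the longest reference transcript. The list medians were 0.060 and 0.14.

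Of 16 matrix-cleaving enzymes and their inhibitors, Mmp16, a membrane-bound metalloproteinase, was the single call, with 6.68 ± 1.38 RPKM in the withdrawal library, 6.75 ± 0.313 RPKM in the cocaine library and 4.04 ± 0.119 RPKM in the saline library. It differed by 0.67 ± 0.042 for cocaine against saline and 0.64 ± 0.17 for withdrawal against saline. Relative to genes of like length Mmp16 came to 0.60 in the first and to 0.57, which is no call, in the second. Of 20 binding partners and receptors none was called for cocaine against saline. Nfasc, neurofascin of nodes and axon initial segments, was called for withdrawal against saline, at 44.7 ± 1.24 against 26.6 ± 0.763 RPKM (0.74 ± 0.033). Relative to genes of like length Nfasc came to 0.45, which is no call. Of 16 other brain matrix genes, Fn1, fibronectin, was called in both comparisons with saline, at 5.86 ± 0.605 RPKM in the withdrawal library, 6.37 ± 0.0655 RPKM in the cocaine library and 2.46 ± 0.341 RPKM in the saline library. Bgn, the small proteoglycan biglycan, was called for withdrawal against cocaine, at 8.52 ± 1.51 against 5.27 ± 1.09 RPKM (0.65 ± 0.21).

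Markers of cells that make or carry the matrix, and of cells outside it, were read in the same way. Of 6 tested fast-spiking interneuron markers 1 was called in each comparison with saline, Erbb4, a neuregulin receptor (0.80 ± 0.15 for cocaine and 0.71 ± 0.19 for withdrawal), and the list medians were 0.30 for cocaine and 0.21 for withdrawal. Relative to genes of like length Erbb4 came to 0.50 for cocaine and 0.43 for withdrawal, below the limit in both, so that the list then held no call. Pvalb, the parvalbumin that marks net-bearing interneurons, had 14.1 ± 1.22 RPKM in the withdrawal library, 15.0 ± 2.73 RPKM in the cocaine library and 17.5 ± 1.39 RPKM in the saline library (-0.30 ± 0.096 for withdrawal and -0.23 ± 0.16 for cocaine, neither a call). Their summed level over 7 markers was 149 to 152 RPKM in the withdrawal lanes, 144 to 155 RPKM in the cocaine lanes and 116 to 131 RPKM in the saline lanes. Kcnc1, a potassium channel subunit, made up most of these sums, with 87.1 ± 0.402 RPKM in the withdrawal library, 83.6 ± 4.01 RPKM in the cocaine library and 64.0 ± 1.96 RPKM in the saline library. None of 11 oligodendrocyte precursor markers was called, with medians of 0.21 for cocaine and 0.23 for withdrawal and sums of 327 to 354, 332 to 382 and 323 to 349 RPKM in the withdrawal, cocaine and saline lanes. None of 12 myelinating oligodendrocyte markers (medians -0.020 for cocaine against saline and -0.16 for withdrawal against saline), 11 astrocyte markers (-0.15 and -0.15), 4 meningeal markers over the filter (0.10 and 0.17) or 6 microglia markers (-0.14 and -0.20) was called.

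Of 12 medium spiny neuron markers, Pde10a was called higher for withdrawal against saline, Ppp1r1b and Tac1 lower for cocaine against saline, and the medians were 0.036 and -0.27 in these comparisons. Relative to genes of like length Pde10a came to 0.41, which is no call, and Ppp1r1b and Tac1 to -0.60 and -0.61. For withdrawal against cocaine none of the 12 medium spiny markers was called, but all 12 had a positive difference. The list median there was 0.34, where that of all tested genes was -0.0074. Of 9 endothelial and mural markers 5 were called higher for withdrawal against saline, among them Flt1 and Pecam1, and 2 for cocaine against saline, Flt1 and the angiopoietin receptor Tek. Relative to genes of like length Flt1 came to 0.57 for withdrawal and 0.50 for cocaine, below the limit in both. Cldn5, Pecam1, Tek and Kdr then lay between 0.67 and 0.82 for withdrawal. For cocaine Tek lay at 0.72, and Pecam1, just short of the limit without that centring (0.58), came to 0.61, above it. The endothelial and mural sums were 90.8 to 98.7 RPKM in the withdrawal lanes, 78.6 to 86.8 RPKM in the cocaine lanes and 58.4 to 63.7 RPKM in the saline lanes, with no marker at 0. Of 4 tested cortical projection neuron markers Slc17a7, a vesicular glutamate transporter, was called lower in both comparisons and Fezf2 in that of withdrawal (-0.74 on about 35 reads in withdrawal and 97 in saline, and -0.54, no call, relative to genes of like length). Slc17a7 had 3.97, 5.54 and 18.3 RPKM in the withdrawal, cocaine and saline libraries. Its log2 difference was -2.08 ± 0.12 for withdrawal against saline and -1.64 ± 0.078 for cocaine against saline. The sums over 8 markers were 52.1 to 53.4, 57.2 to 63.1 and 75.4 to 80.0 RPKM in the withdrawal, cocaine and saline lanes. The listed marker 6330527O06Rik made up most of these sums, with 45.1, 48.5 and 52.3 RPKM in the withdrawal, cocaine and saline libraries. Summed astrocyte markers reached 1131 to 1169, 1214 to 1225 and 1230 to 1250 RPKM in the withdrawal, cocaine and saline lanes, and myelin markers, for the same groups in that order, 1870 to 1881, 1960 to 1994 and 2064 to 2079 RPKM. Meningeal sums were 19.4 to 22.8 RPKM in withdrawal, 20.3 to 24.9 RPKM in cocaine and 16.9 to 20.2 RPKM in saline lanes. Microglia sums were 101 to 110 RPKM in withdrawal, 103 to 118 RPKM in cocaine and 117 to 130.0 RPKM in saline lanes. Interneuron and endothelial sums were thus higher, and medium spiny, cortical, astrocyte and myelin sums lower, in every withdrawal and cocaine lane than in any saline lane. These sums weigh abundant genes most, and single markers differed in sign: for withdrawal against saline 5 of 6 interneuron, 9 of 9 endothelial, 6 of 12 medium spiny, 0 of 4 cortical, 5 of 11 astrocyte and 2 of 12 myelin markers had a positive difference, and for cocaine against saline 5, 9, 2, 1, 5 and 5 of them. No listed marker was at 0 in all lanes, and their part in the Tnr difference was not tested.

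**Figure D5:**
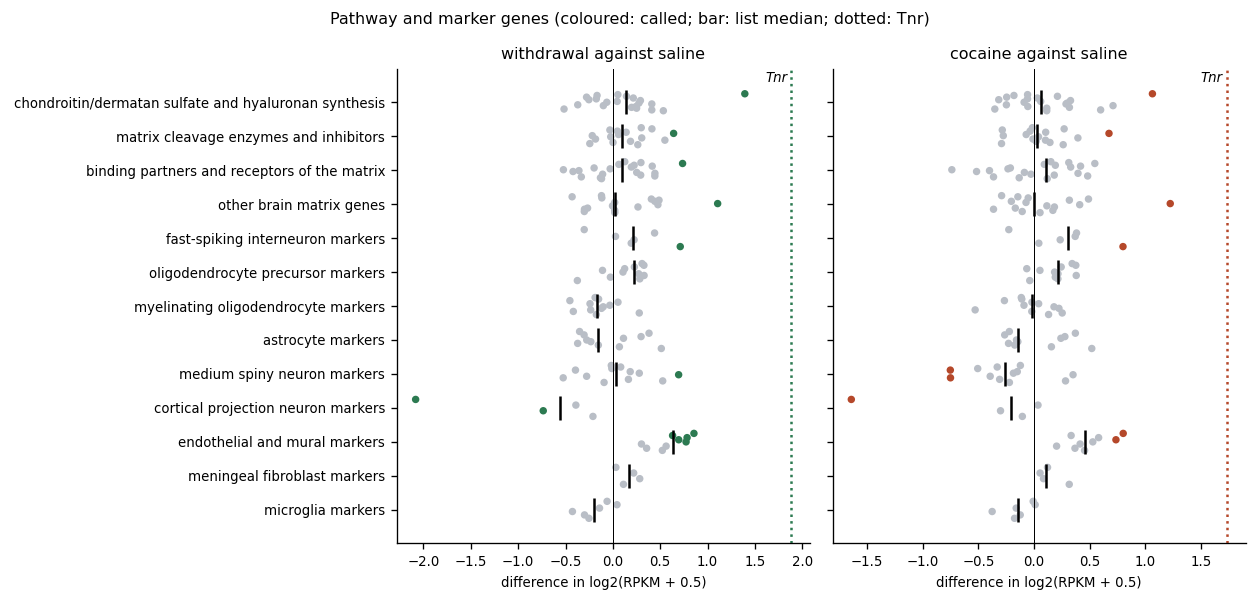
Difference in mean log2(RPKM + 0.5) of every tested gene in the 13 lists, for withdrawal against saline and cocaine against saline; coloured points are called, bars are list medians and the dotted line is Tnr. Tnr at 1.88 and 1.73 lies beyond every listed gene on the positive side, the nearest being Xylt1 at 1.39 and Fn1 at 1.22.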

How the data were processed

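RPKM values were computed by the authors, for each lane and for each whole library, and the file headers give the totals behind them. The submitters' processing notes list Bowtie 0.12.7 and mm9. How reads were assigned to genes, and with which annotation, was not given in the sources used. Per the labels' protocols, fragmented poly(A) RNA was reverse-transcribed from random primers, inserts were about 200 bp and sequencing was paired-end with 37 cycles. Sample titles gave the group and a replicate number, which was taken as the lane number. The 168063 values in the lane files equal those of the series table.

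RPKM times total and gene model length came out as multiples of 1/37 of a read, so no count test was possible. The smallest length giving this was the model length (multiplied by 37 for 107 genes that were shorter than a read or matched the reference length only then). Differences used log2(RPKM + 0.5) in Python 3.11.15 with numpy 2.4.6 and pandas 2.3.3, on 14051 genes. With 1 library per group no p-value was computed. The call rule was checked on simulated data, a check that cannot replace replicate libraries and whose outcome is not given here. The members, the 13 lists (174 of 175 symbols found, 1 through an older symbol) and the rules were chosen with earlier results of these data known. Named genes were the members, up to 2 called genes per list and comparison with the largest difference, and the 5 genes most like Tnr. Alternatives were the pseudocount, filter, size limit, lane condition, scaling, length centring, composite values, lane pairing and each lane left out. Longest transcripts came from the GENCODE mouse annotation and upstream regions from RefSeq, both GRCm38, so no coordinates of the files are given.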

Additional observations from a re-analysis of the deposited data

How the results depend on the processing

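The number of matrix genes called stayed at 1 higher for each comparison with saline and 0 for withdrawal against cocaine under every alternative but 1. With a smaller size limit (0.32 on the log2 scale) it was 3 higher for cocaine against saline (Tnr, Vcan and Ptprz1) and 3 for withdrawal against saline (Tnr, Ncan and Ptprz1). Tnr ranged from 1.64 to 1.81 for cocaine against saline and from 1.79 to 1.97 for withdrawal against saline over 18 alternatives, and Tnr was called in each. Lane numbers did not pair the lanes: deviations of same-numbered lanes correlated at -0.051 to 0.076 and 2 of 9 matched best with their own number. With the replicate block the member counts were 1, 1 and 0. Over all genes, calls for cocaine against saline, withdrawal against saline and withdrawal against cocaine numbered 749, 1030 and 143, against 3077, 3697 and 653 at that smaller limit, 146, 190 and 27 at 2 times, and 399, 591 and 43 with a filter of 5 RPKM. Withdrawal against cocaine gave 296 calls with no filter, 314 with no condition on lanes, 282 with composite values and 233 to 273 with 1 lane left out. Uncalled values near 0 turned sign for Bcan and Vcan (given above) and, without 1 withdrawal lane, for Tnc (-0.054) and Acan (-0.15), all for withdrawal against saline. Depth limits Tnc and Acan, with 10 to 43 reads in the lowest lane of a library.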
